A study of Caenorhabditis elegans with 27 samples.

Results

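The nuclear hormone receptor genes of Caenorhabditis elegans described here are those whose symbol is nhr followed by a number, leaving out nhr-49 and nhr-80. This rule uses no measured value, but the family was picked with earlier results of these data known. The count table held 267 such genes among 46934, and 244 of them had counts enough to test among 19290 genes tested. The remaining 23 genes had at most 24 counts in any library. RNA came from whole worms of the wild-type strain N2, moved as synchronized L4 larvae onto plates at 20 °C and fed Escherichia coli OP50 with black rice extract (BRE) or OP50 alone. BRE worms were collected at days 6, 11, 15 and 17, and OP50 worms at days 1, 6, 11, 15 and 17, in 9 groups of 3 libraries from about 1000 pooled worms each. All groups share the genotype, which carries no transgene or mutation, and there was no BRE group at day 1. The labels list several extract concentrations without saying which one the sequenced worms received. They call the libraries biological replicates without describing separate cultures, so the p-values measure the spread between these pools of worms.

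Nuclear hormone receptors are transcription factors with a zinc-finger DNA-binding domain and a domain that can bind small lipophilic ligands such as steroids, bile acids and fatty acids. Nematodes have far more of them than insects or vertebrates, and most of the worm genes descend from a receptor like vertebrate HNF4, a regulator of liver and gut metabolism. Worm members are known for roles in moulting, fat and vitamin B12-linked metabolism, development of the gonad and nervous system, and responses to toxins and pathogens. Few of them have a known ligand.

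Most of the receptor genes lie on 1 chromosome and were transcribed at low levels. In the WBcel235 annotation chromosome V carries 167 of the 267 genes (62.5%), against 25% of all protein-coding genes, with 33 on chromosome IV, 23 on X, 22 on I, 15 on II and 7 on III. In all, 137 of the 267 genes have another member as the next protein-coding gene on either side. Genes that do not code for protein were passed over. The longest such run holds 9 genes (nhr-185, nhr-186, nhr-188, nhr-189, nhr-187, nhr-157, nhr-158, nhr-159 and nhr-124; chromosome V, 3844429 to 3886204). Exons of 65 members overlap another gene, and no source used here tells whether the counts respect strand. Levels below are in CPM, counts per M of the normalized total of the library. Together the members took between 0.108% and 0.206% of the counts of a library. Averaged over the 9 groups, 40 members stood at 10 CPM or more, 110 at 1 to 10 CPM and 117 below 1 CPM.

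Libraries held 101.61 to 164.34 M counts each (median 137.09 M). Transcripts of the msp genes, which encode the major sperm proteins, had a median summed level of 2.6 CPM over the 27 libraries and exceeded 10 times this median in 4 of them, a limit set after seeing the data. These 4, at 28.4 CPM or more, were OP50 day 11 replicate 1, OP50 day 15 replicate 3, OP50 day 17 replicate 1 and BRE day 11 replicate 1. The next library was close below, at 25.3 CPM. OP50 day 17 replicate 1 also had a low summed member level, 1267 CPM against 1705 and 1641 CPM in the other day 17 libraries on OP50. OP50 day 1 replicate 3 had 13 members at under 1/2 of their level in both other day 1 libraries, among them nhr-14, nhr-25, nhr-67, nhr-85 and nhr-232, out of 144 with a mean of at least 1 CPM. Between 0 and 3 members stood so low in each other library. The cell type markers of a whole worm were present, and their summed levels changed with age. Those of intestine were at 479 to 715 CPM in OP50 worms of day 17, against 3520 to 4490 CPM at day 1. Body wall muscle markers were at 932 to 1220 CPM, against 3350 to 4940 CPM at day 1, and epidermis markers at 205 to 316 CPM, against 1820 to 2060 CPM. Germline markers were at 5340 to 8590 CPM at day 17, against 13600 to 14200 CPM at day 1, and neuronal markers at 327 to 392 CPM, against 307 to 370 CPM. In RNA of whole worms, fewer cells of a type, less RNA per cell and a change in the marker genes alone cannot be told apart. The part of these shifts in the receptor results was not tested.

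The comparison of OP50 worms with those of day 1 asked how the receptor genes change with age. More members were called lower than higher at day 6, and more higher than lower from day 11 on. At day 6, 18 of 244 tested members were called higher and 55 lower than at day 1 (edgeR's quasi-likelihood test, Benjamini-Hochberg adjusted p under 0.05 over all genes), where 14% of all genes tested were higher and 19% lower. At day 11, 56 members were higher and 27 lower (19.2% and 16.6% of all genes). At day 15, 92 were higher and 29 lower (26.1% and 21.1%), and at day 17, 103 were higher and 37 lower (29.1% and 24.8%). These days share the day 1 libraries. For days 6, 11, 15 and 17 the median log2 difference of the tested members was -0.25, 0.14, 0.43 and 0.51, beside -0.10, 0.07, 0.09 and 0.10 over all genes. At day 17, 81 members were called higher by 2-fold or more and 13 lower by as much (23.4% and 12.8% of all genes). By level, 44 of the 82 lowest members were higher at day 17 and 1 lower. Such genes pass the count filter through the group in which they are high. In the middle 81 members, 34 were higher and 14 lower (42% and 17.3%). In the highest 81 members, 25 were higher and 22 lower (30.9% and 27.2%). The part of level in these counts and medians was not tested. The count of lower members at day 17 was 22 without OP50 day 17 replicate 1, with 109 higher, and 21 in a fit of the day 17 and day 1 libraries alone, with 75 higher. Calls over all genes, either way, were 9414 and 7771 in these 2 fits, against 10399 in the main fit.

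**Figure D1:**
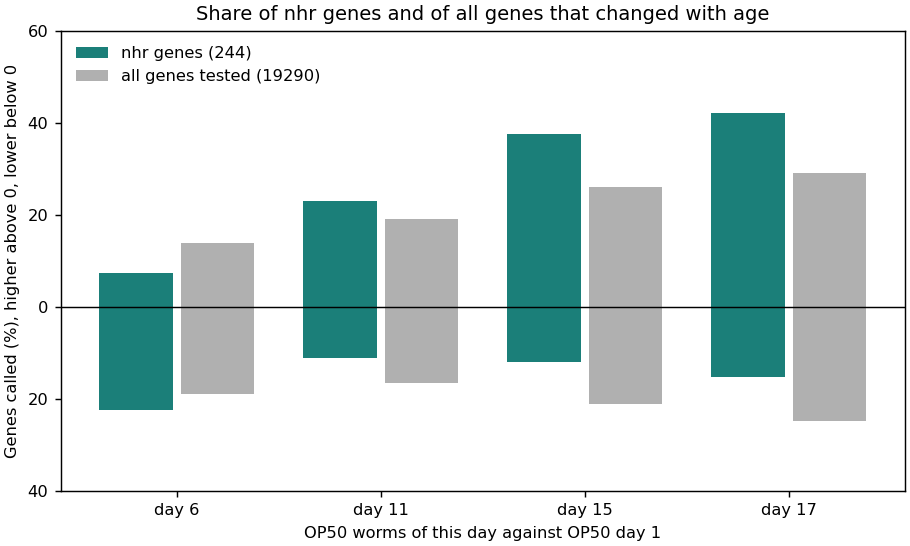
Share of the 244 tested nhr genes (left bar of each pair) and of all 19290 genes tested (right bar) that were called higher (above 0) or lower (below 0) in OP50 worms of each day than at day 1. The share of nhr genes called higher was 7.38% at day 6 and 42.2% at day 17, against 14% and 29.1% of all genes. The nhr genes include those of low level, which pass the count filter through the group in which they are high.

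Over the 5 OP50 days 169 of 244 tested members changed in a joint test (69.3%, where 66.2% of all genes did). Of these 169 members, 87 had their highest group mean at day 17 (51.5%, against 31.8% of all changing genes), and the numbers for days 1, 6, 11 and 15 were 37, 15, 6 and 24. These 4 numbers are 21.9%, 8.88%, 3.55% and 14.2% of the 169, against 30.7%, 20.4%, 4.45% and 12.7% of all changing genes. The lowest mean was at day 6 for 82 of them, and for 31.3% of all changing genes. A dip followed by a rise, that is a call lower at day 6 than at day 1 and higher at day 17 than at day 6, was seen for 32 members (13.1%, against 8.74% of all genes). Both calls use the same day 6 libraries, so low values there count toward each. Leaving out 1 library at a time gave 40 to 68 members lower at day 6 than at day 1. A further 87 were not called at day 6 against day 1 and were higher at day 17 than at day 6 (35.7%, against 21.4%). The shares in this paragraph include members of low level, to which the limit of the count filter applies. Summed neuronal markers at day 6 were 244 to 301 CPM and pharyngeal markers 33.4 to 45.3 CPM in OP50 worms, against 307 to 370 CPM and 75.8 to 99.3 CPM at day 1. At day 17 the pharyngeal markers stood at 57.2 to 101 CPM. Other markers took other courses. Germline markers were at 13300 to 14200 CPM at day 6, against 13600 to 14200 CPM at day 1. Intestine markers were at 1340 to 1520 CPM at day 6 and 479 to 715 CPM at day 17, and epidermis markers at 355 to 424 and 205 to 316 CPM. Body wall muscle markers were at 641 to 1200 and 932 to 1220 CPM, which overlapped. The part of any marker shift in the dip and rise was not tested.

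**Figure D2:**
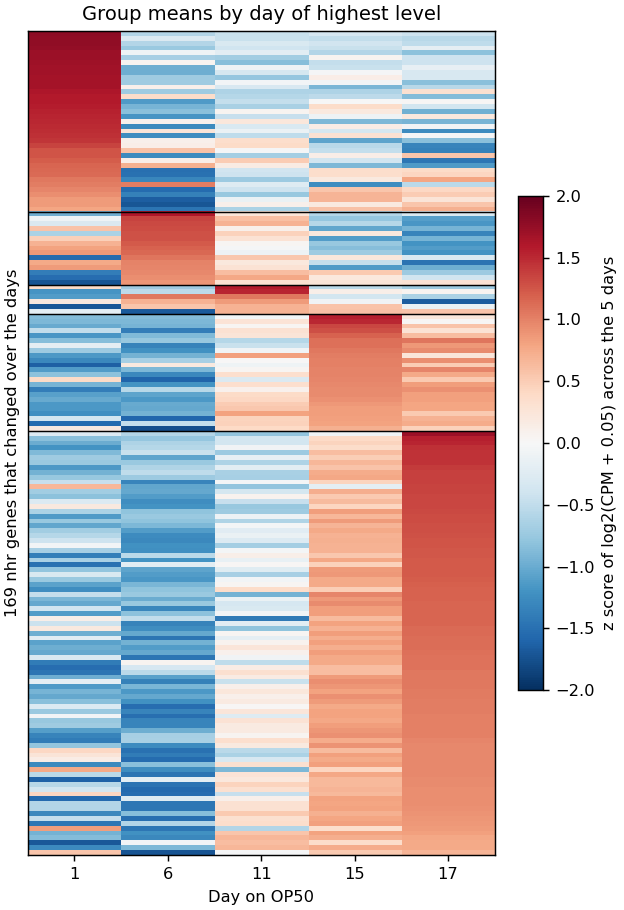
Group means of the 169 nhr genes that changed over the 5 OP50 days, 1 row per gene and 1 column per day, as z scores of log2(CPM + 0.05) within each gene. Rows are grouped by the day of the highest mean, and the lowest and tallest block holds the 87 genes that were highest at day 17.

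Among 10 receptors with known roles in metabolism and diet, the 2 genes that fell most were regulators of vitamin B12-linked pathways. nhr-114 (chromosome V, 4187202 to 4190008, WBcel235) encodes an HNF4-like receptor that is known to drive genes of the methionine and S-adenosylmethionine (SAM) cycle and to protect the germline on some bacterial diets. It stood at 2.75, 3.16 and 1.98 CPM in OP50 worms of day 17, against 57.2, 35.9 and 55 CPM at day 1. The groups were far apart, and the fall was 4.23 on the log2 scale (log2 difference -4.23, SE 0.32, edgeR adjusted p = 4.6e-10). It had been reached by day 6, with 2.27, 2.57 and 2.32 CPM, and at days 11 and 15 every OP50 library lay between 2.27 and 4.02 CPM.

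nhr-68 (chromosome V, 11573440 to 11575709) acts with nhr-10 in the response to lasting propionate, which builds up when vitamin B12 is low. Its OP50 libraries had 24.3, 25.5 and 26.7 CPM at day 1, 7.77, 7.69 and 7.25 CPM at day 6, 8.83, 5.93 and 14.3 CPM at day 11, 3.69, 1.77 and 5.99 CPM at day 15, and 1.01, 1.75 and 2.42 CPM at day 17. The day 17 libraries lay below every library of days 1, 6 and 11, and the log2 difference from day 1 was -3.88 (SE 0.49, edgeR adjusted p = 9.4e-07). Its partner nhr-10 averaged 19.2 CPM at day 17 and 25.6 CPM at day 1, which was not called (log2 difference -0.41, SE 0.18, edgeR adjusted p = 0.059).

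Short lists of genes in pathways that these receptors are known to regulate were looked at as well. All 5 propionate shunt genes listed were called lower at day 17 than at day 1, with a median log2 difference of -2.29. Of all genes tested 24.8% were called lower. The acyl-CoA dehydrogenase gene acdh-1 averaged 0.469 ± 0.305 CPM at day 17, against 977 ± 99.9 CPM at day 1 (SD, n = 3 each), and hphd-1, a hydroxyacid-oxoacid transhydrogenase gene, 8.1 ± 2.78 CPM against 392 ± 73.1 CPM. All 5 methionine and SAM cycle genes were called lower as well, with a median of -0.99. The SAM synthetase gene sams-1 averaged 20.3 ± 3.41 CPM at day 17, against 133 ± 32.2 CPM at day 1. These lists are short, their genes are expressed in the intestine among other tissues, and the summed intestine markers fell over the same days. Those markers averaged 572 CPM at day 17, against 4000 CPM at day 1. Whether the receptors had a part in the lower levels was not tested.

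Of the 10 metabolic receptors 2 were called higher and 5 lower at day 17 (29.1% and 24.8% of all genes), with a median of -0.40. nhr-76, which links serotonin signals to fat loss in the intestine, had 19.3, 17.5 and 19.7 CPM at day 17, against 13, 12.1 and 12.1 CPM at day 1. It had been higher still at day 6, at 24.9, 26.9 and 37.9 CPM, with every library above all of day 1 (log2 difference 1.27, SE 0.16, edgeR adjusted p = 4.8e-06). The day 17 call of nhr-76 was lost in a fit with a term for replicate number (log2 difference 0.63, edgeR adjusted p = 0.059). nhr-62, needed for the long life of worms under dietary restriction, had 6.04, 10.3 and 9.43 CPM at day 17, against 4.17, 4.41 and 3.41 CPM at day 1 (log2 difference 1.11, SE 0.26, edgeR adjusted p = 0.0013).

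nhr-13, a partner of other receptors in fatty acid desaturation, was tight within groups, with 7.97, 8.06 and 7.34 CPM at day 17, against 12.3, 12.4 and 12.2 CPM at day 1 (log2 difference -0.66, SE 0.12, edgeR adjusted p = 5.6e-05). In a fit with a term for replicate number its call was lost (log2 difference -0.63, edgeR adjusted p = 0.073). nhr-66 and nhr-64, both tied to lipid metabolism, were also called lower, by 0.76 and 0.39 on the log2 scale. With OP50 day 17 replicate 1 left out, nhr-66 lost its call (adjusted p = 0.076), and nhr-64 lost its own in 8 of 12 alternatives, with an adjusted p of 0.20 without that library. nhr-14, a regulator of iron uptake in the intestine, and nhr-69 were not called, with log2 differences of -0.34 (SE 0.35) and 0.09 (SE 0.19).

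**Figure D3:**
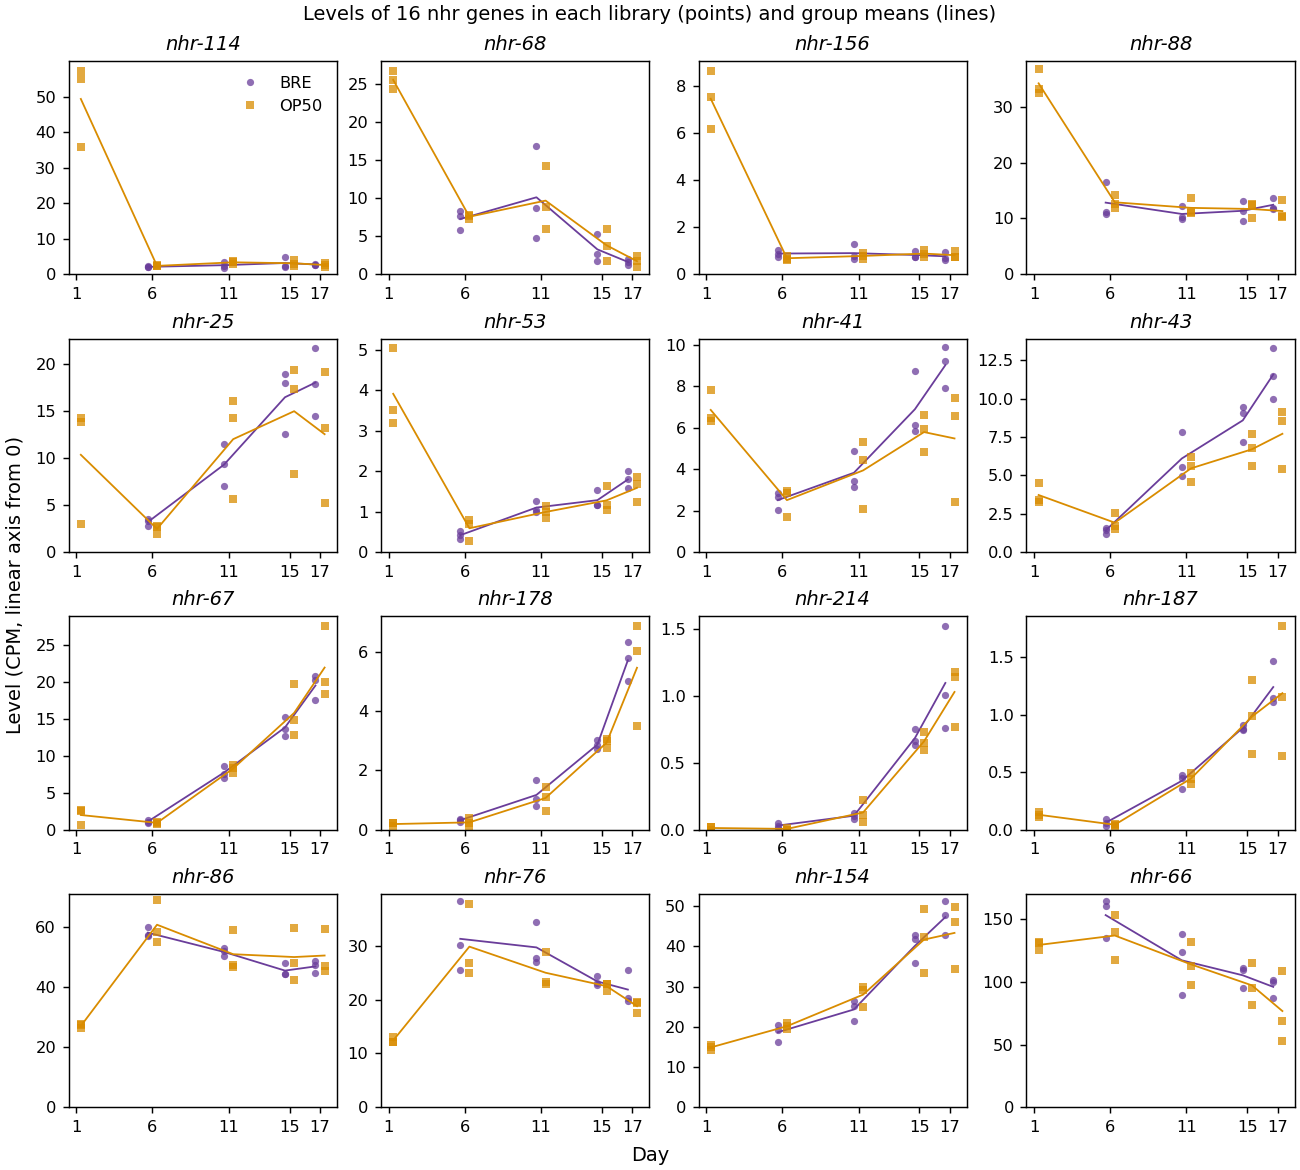
Levels of 16 nhr genes in CPM on linear axes from 0, 1 point per library and lines through group means, by day, with BRE worms as purple circles and OP50 worms as orange squares. nhr-114, nhr-156 and nhr-88 stood lower on every later day than at day 1, nhr-25, nhr-53 and nhr-41 dipped at day 6, and nhr-67, nhr-178, nhr-214 and nhr-187 climbed to day 17, with BRE and OP50 points close together.

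Of the 11 receptors conserved in insects or vertebrates, 6 were called higher and 3 lower at day 17 than at day 1, with a median log2 difference of 1.42. Of all genes 29.1% were higher and 24.8% lower. In larvae several of them act in turn at each moult, which adult worms no longer undergo. nhr-67 (chromosome IV, 11169748 to 11174791), the relative of the insect gene tailless, which patterns the vulva, uterus and some neurons, moved most among those above 1 CPM. Its OP50 libraries had 2.66, 2.55 and 0.672 CPM at day 1, 1.06, 0.731 and 0.906 CPM at day 6, 8.32, 8.75 and 7.68 CPM at day 11, 12.8, 14.8 and 19.7 CPM at day 15, and 18.3, 19.9 and 27.5 CPM at day 17. Libraries of days 11, 15 and 17 lay above all of days 1 and 6, and day 17 exceeded day 1 by 3.48 on the log2 scale (SE 0.33, edgeR adjusted p = 1.4e-08). It was 1 of the genes at a low level in day 1 replicate 3, and without that library the difference was 3.16.

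nhr-85 is related to insect E75 and vertebrate Rev-Erb and helps to time larval development. It had 7.78, 5.74 and 5.72 CPM at day 17, against 1.62, 2.19 and 0.636 CPM at day 1 (log2 difference 2.11, SE 0.30, edgeR adjusted p = 4.4e-06). nhr-6, the worm NR4A receptor, which acts in the spermatheca, had 9.23, 17.9 and 13 CPM, against 3.95, 7.25 and 3.6 CPM at day 1 (log2 difference 1.44, SE 0.31, adjusted p = 4.5e-04). nhr-91, related to vertebrate GCNF, had 7.94, 12.4 and 12.3 CPM, against 4.39, 3.71 and 4.11 CPM at day 1 (log2 difference 1.42, SE 0.20, adjusted p = 2.8e-06). In all of these receptors every day 17 library lay above every day 1 library. Exons of nhr-85 overlap npr-14 on the other strand, so its counts are less certain.

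nhr-25, the worm FTZ-F1 receptor of moulting and epidermal and gonadal development, fell and came back. At day 6 it had 1.93, 2.69 and 2.75 CPM, against 13.8, 14.2 and 3.01 CPM at day 1, and each day 6 library lay below the lowest of day 1. The log2 difference was -2.07 (SE 0.49, edgeR adjusted p = 0.0023), and ran from -2.46 (without day 1 replicate 3) to -1.74 over the alternatives, with adjusted p-values of 7.1e-05 to 0.061. At day 17 it had 5.21, 19.2 and 13.3 CPM, a range that overlapped day 1 (log2 difference 0.28, SE 0.47, not called) and lay above day 6 (log2 difference 2.35, SE 0.49, adjusted p = 4e-04). The lowest of these was replicate 1, which is rich in msp transcripts. nhr-41, related to insect DHR78, dipped likewise, to 1.68, 2.86 and 2.96 CPM at day 6, against 6.46, 7.81 and 6.3 CPM at day 1 (log2 difference -1.45, SE 0.34, adjusted p = 0.0024).

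The other conserved receptors moved less, and calls among them were less firm. nhr-23, the worm ROR-like receptor needed for moulting, had 35.6, 80.9 and 52.5 CPM at day 17, against 84.4, 80.6 and 96.8 CPM at day 1. The groups overlapped, and its call (log2 difference -0.63, SE 0.23, edgeR adjusted p = 0.027) was lost in 8 of 12 alternatives, with an adjusted p of 0.32 without OP50 day 17 replicate 1. nhr-48 was called lower by 0.69 and lost its call in 7 of 12 alternatives, with an adjusted p of 0.32 without the same library. nhr-8, which serves in resistance to toxins and in sterol balance, was called lower by 0.75 (SE 0.22, adjusted p = 0.0075), at 3.62, 4.28 and 3.61 CPM, against 5.99, 7.93 and 5.44 CPM at day 1. Its call was lost without day 1 replicate 2 (adjusted p = 0.062). It was also lost in a fit with a term for replicate number (log2 difference -0.70, edgeR adjusted p = 0.067). nhr-239 and nhr-111 were called higher from levels of at most 0.2 CPM at day 1.

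Among 5 nuclear receptors without an nhr number, none was called at day 17, and daf-12, the dauer and lifespan receptor, averaged 34.4 ± 14.9 CPM at day 17 and 29.6 ± 5.37 CPM at day 1 (SD, n = 3 each). fax-1, which specifies neurons, was called lower at day 6, at 0.0967 ± 0.0123 CPM against 0.356 ± 0.0474 CPM at day 1 (log2 difference -1.87, SE 0.34, edgeR adjusted p = 2.4e-04). odr-7, an olfactory neuron receptor, had no count in any day 6 library on OP50. Of the 3 genes for synthesis of dafachronic acid, the ligand of DAF-12, daf-36 was called lower at day 17 than at day 1 (log2 difference -3.37, SE 0.44, adjusted p = 1.3e-06) and dhs-16 higher (log2 difference 2.90, SE 0.39, adjusted p = 1.7e-06). daf-9 was not called. Of 3 coregulators only the Mediator subunit gene mdt-15 was called, at 140 ± 58.9 CPM at day 17, against 251 ± 31.8 CPM at day 1 (log2 difference -0.84, SE 0.27, adjusted p = 0.011).

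Of 5 receptors of toxin, immune and hypoxia responses, 1 was called higher at day 17 than at day 1 and 2 lower (29.1% and 24.8% of all genes). nhr-86 (chromosome V, 2061106 to 2066850), an HNF4-like receptor that detects a bacterial phenazine and switches on immune genes, had 59.3, 46.9 and 45.4 CPM at day 17, against 27.2, 26.3 and 27.6 CPM at day 1. Every library of days 6 to 17 lay above all of day 1. The step was in place at day 6, at 69, 54.9 and 58.5 CPM (log2 difference 1.17, SE 0.13, edgeR adjusted p = 5.9e-07). nhr-176, which is needed to break down the drug thiabendazole, went the other way, with 1.19, 1.67 and 1.57 CPM at day 17, against 3.64, 3.79 and 3.69 CPM at day 1 (log2 difference -1.33, SE 0.21, adjusted p = 2e-05). nhr-8 is counted here too. nhr-57, known to be induced in hypoxia, was not called (log2 difference -0.09, SE 0.33), nor was nhr-42 (-0.09, SE 0.21).

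Beyond these groups, the largest rises at day 17 against day 1, by the rule used to name genes, included nhr-214, nhr-178, nhr-263, nhr-150, nhr-187, nhr-172, nhr-127 and nhr-270, for which no role is given here. All of them but nhr-214 lie on chromosome V. nhr-178 (chromosome V, 1603906 to 1607953) had 3.5, 6.86 and 6.01 CPM at day 17, against 0.125, 0.218 and 0.209 CPM at day 1. The lowest day 17 library was many times the highest of day 1, with a log2 difference of 4.88 (SE 0.40, edgeR adjusted p = 1.3e-09). nhr-172 had 3.69, 3.14 and 4.39 CPM, against 0.547, 0.51 and 0.218 CPM at day 1 (log2 difference 3.13, SE 0.30, adjusted p = 1.4e-08). nhr-150 had 2.01, 2.95 and 2.3 CPM at day 11, 1.07, 2.26 and 4.15 CPM at day 15, and 1.38, 2.01 and 1.76 CPM at day 17, and these days overlapped. nhr-214 (chromosome X, 12700393 to 12702063) had 91, 167 and 185 counts at day 17, against 0, 2 and 2 counts at day 1, so the size of its fold rests on few counts, and its exons overlap nhr-26.

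Further falls by the same rule were in nhr-156, nhr-99, nhr-110, nhr-88, nhr-15, nhr-53 and nhr-106. nhr-156 (chromosome V, 3906106 to 3908452) had 0.73, 0.726 and 0.981 CPM at day 17, against 8.64, 6.17 and 7.53 CPM at day 1 (log2 difference -3.19, SE 0.27, edgeR adjusted p = 1.8e-09). nhr-88 (chromosome II, 2976639 to 2987023) had 10.5, 13.3 and 10.2 CPM, against 36.8, 32.5 and 33.2 CPM at day 1 (log2 difference -1.59, SE 0.17, adjusted p = 9.5e-08). Both had reached their later levels by day 6, as nhr-114 had. nhr-110 kept falling, with a log2 difference of -0.99 at day 6 and -2.25 at day 17. nhr-53 was lowest at day 6 (0.681, 0.8 and 0.277 CPM) and stood at 1.23, 1.85 and 1.68 CPM at day 17, against 3.5, 3.2 and 5.04 CPM at day 1. The day 17 libraries lay between the other 2 groups, overlapping neither.

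By position, 71 of 155 tested members on chromosome V were higher at day 17 than at day 1 (45.8%) and 21 lower (13.5%), beside 33.8% and 23.1% of all tested protein-coding genes on that chromosome. Of 89 members elsewhere 32 were higher (36%) and 16 lower (18%), beside 26.3% and 26.4% of such genes elsewhere. The difference between these positions was not tested, and members on chromosome V had a median level of 1.66 CPM against 6.25 CPM for the others. Among the 82 members of lowest level, 44 were called higher and 1 lower, and among the 81 of highest level 25 and 22. A gene of low level passes the count filter through the group in which it is high, so nothing is read from the first of these counts. Members next to another member were higher in 42.5% and lower in 7.87%, and the other members in 41.9% and 23.1%. Of 80 pairs of next-door members with both tested, both genes were higher in 21 (26.2%) and none had both lower, against 10.2% and 8.45% of 16233 pairs of next-door protein-coding genes. nhr-110 and nhr-237 were the only such members called in opposite directions. Members next to another were themselves called higher more often, and lower less often, than all genes (29.1% and 24.8%). The pairs include members of low level, and whether neighbours change together beyond these rates was not tested. nhr-129 and nhr-168, next to each other on chromosome V, had log2 differences of 1.95 (SE 0.21) and 1.60 (SE 0.20).

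The day 17 and day 6 worms of each diet gave a comparison with no library in common between diets. The 2 comparisons are still not independent. They share the estimate of spread of each gene, and replicates of equal number deviated alike on both diets at days 6 and 17. On BRE, 136 of 244 tested members were called higher at day 17 than at day 6 and 26 lower (32.7% and 22% of all genes). On OP50 the counts were 125 and 24 (32.5% and 23.5% of all genes). The median log2 difference of the members was 1.01 on BRE and 0.84 on OP50, beside 0.21 and 0.16 over all genes. Of the higher calls, 50 on BRE and 46 on OP50 were in the 82 members of lowest level, where the filter's limit applies. In the 81 members of highest level, 48.1% were higher on BRE and 43.2% on OP50. Of the genes called higher, 116 were so on both diets, which is 85.3% of the BRE calls and 92.8% of the OP50 calls (83.9% and 84.5% over all genes). For lower calls the number was 21, or 80.8% and 87.5% (85.4% and 80.2% over all genes), and no member was called in opposite directions.

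nhr-67 had 17.4, 20.2 and 20.8 CPM in BRE worms of day 17, against 0.967, 1.33 and 0.934 CPM in those of day 6 (log2 difference 4.18, SE 0.34, edgeR adjusted p = 2.2e-09). nhr-178 had 5.79, 5.01 and 6.32 CPM in BRE worms of day 17, against 0.259, 0.322 and 0.364 CPM at day 6, and nhr-172 3.92, 3.94 and 4.71 CPM, against 0.17, 0.173 and 0.206 CPM. Both stood far apart between the days, as on OP50. nhr-68 fell on BRE to 1.65, 1.27 and 1.98 CPM at day 17, against 7.63, 8.3 and 5.87 CPM at day 6 (log2 difference -2.15, SE 0.46, adjusted p = 5.1e-04). nhr-74 stood at 0.195, 0.277 and 0.267 CPM in BRE worms of day 17, against 2.59, 0.918 and 1.25 CPM at day 6 (log2 difference -2.69, SE 0.50, adjusted p = 1.2e-04). Its OP50 libraries had 0.378, 0.324 and 0.611 CPM at day 17, against 1.47, 1.02 and 1.19 CPM at day 6.

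**Figure D4:**
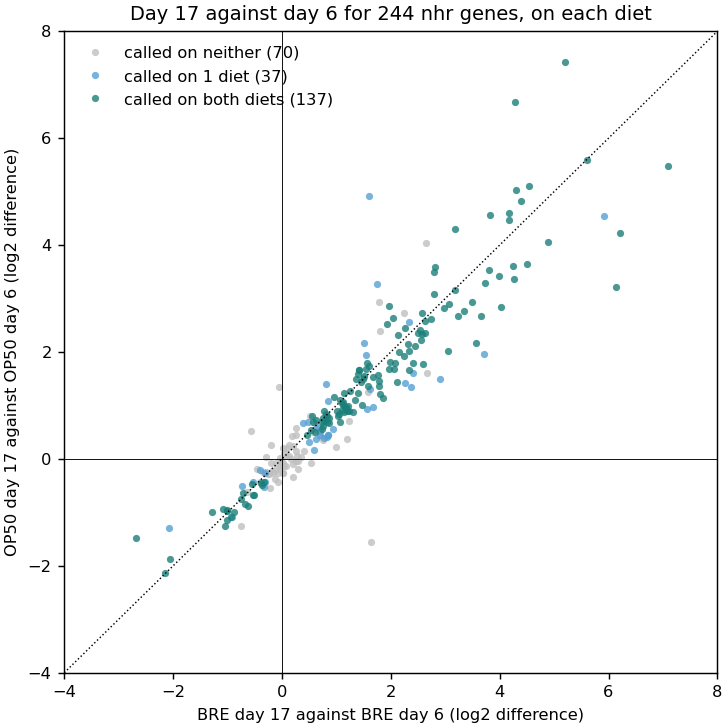
Log2 difference of day 17 against day 6 on BRE (x axis) and on OP50 (y axis) for 244 nhr genes, 1 point per gene, with the line of equality dotted. The 137 genes called on both diets (dark) lie in the quadrants of equal sign, and the widest scatter is among genes with few counts at day 6, whose fitted values depend on the fit's handling of zeros.

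The comparison of BRE with OP50 worms of the same day asked whether the extract changed the receptor genes, and no member was called on any day. At days 6, 11, 15 and 17, 4, 2, 1 and 4 members had an unadjusted p under 0.05 (edgeR), and DESeq2 also called none. Of all 19290 genes the test called 3 at day 6 (0.0156%), 2 at day 11 (0.0104%) and 0 (0%) at days 15 and 17. Averaged over the 4 days 0 members were called and 5 had an unadjusted p under 0.05, where 0.0467% of all genes were called. A joint test of whether the BRE difference varies between days called 0 members, with 1 at an unadjusted p under 0.05, and the difference in change between days 6 and 17 called 0, with 3. DESeq2 called none in these either.

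The members' differences between diets were centred near 0, with medians of -0.05, -0.01, -0.03 and 0.05 at days 6, 11, 15 and 17. The approximate 95% interval of the difference lay inside 2-fold in either direction for 158, 170, 166 and 174 of 244 tested members at days 6, 11, 15 and 17, and for 203 (83.2%) in the average over days. For the others this design leaves a 2-fold difference possible. nhr-114 was at 2.77, 2.88 and 2.68 CPM in BRE worms of day 17, against 2.75, 3.16 and 1.98 CPM in OP50 worms. nhr-86 was at 47.3, 48.6 and 44.8 CPM, against 59.3, 46.9 and 45.4 CPM in OP50 worms (log2 difference -0.11, SE 0.13). In both the diets overlapped.

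**Figure D5:**
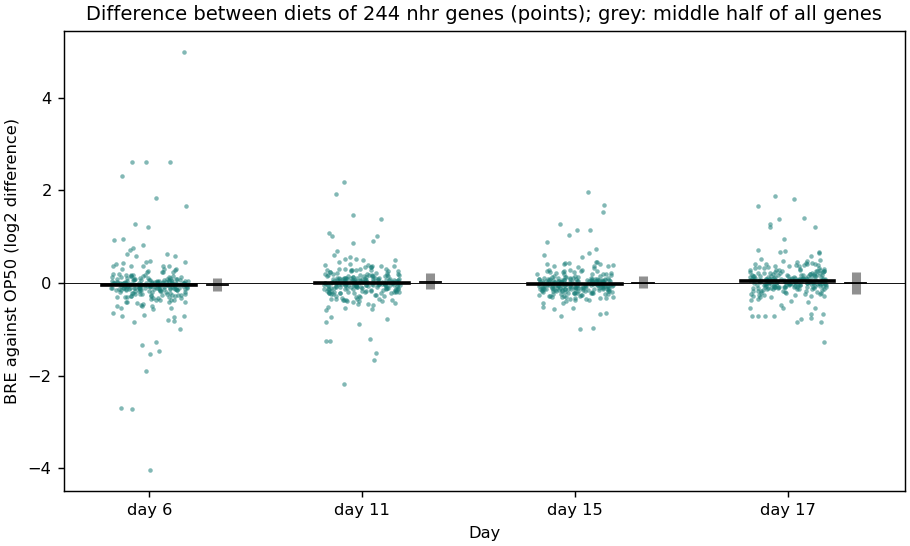
Log2 difference of BRE against OP50 worms of the same day for 244 nhr genes, 1 point per gene, with the median as a black line and the middle 50% of all genes tested as a grey bar. The medians lie between -0.05 and 0.05, and the points farthest from 0 at day 6 are genes with few or no counts in 1 of the groups.

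nhr-43 had the smallest unadjusted p at day 17, and no role is given for it here. It had 9.96, 13.3 and 11.5 CPM in BRE worms, against 5.42, 9.15 and 8.54 CPM in OP50 worms. The diets did not overlap, but the difference was not called (log2 difference 0.59, SE 0.23, 95% interval 0.13 to 1.04, unadjusted p = 0.019, edgeR adjusted p = 0.58), and without OP50 day 17 replicate 1 it was 0.36. At day 6 it had 1.56, 1.19 and 1.46 CPM in BRE worms, against 1.72, 2.53 and 1.47 CPM in OP50 worms, where the diets overlapped. Of all members it also had the smallest unadjusted p for the difference in change between days 6 and 17 (log2 difference 1.03, SE 0.33, unadjusted p = 0.0051, edgeR adjusted p = 1). nhr-274, nhr-41 and nhr-23 were the other members of at least 1 CPM among the 5 of smallest unadjusted p at day 17, and none was called. nhr-274 had 58.9, 54.5 and 50.5 CPM in BRE worms, against 44.2, 52.1 and 42.9 CPM in OP50 worms, where the diets overlapped (log2 difference 0.24, SE 0.11). The log2 differences of nhr-41 and nhr-23 were 0.72 (SE 0.34) and 0.48 (SE 0.23), and 0.33 and 0.21 without OP50 day 17 replicate 1.

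Several of the smallest unadjusted p-values belonged to genes with almost no counts, for which no fold is given. nhr-290 had 4, 2 and 6 counts in BRE libraries of day 6, against 0, 0 and 0 in OP50 libraries, and 15, 16 and 10 counts at day 17, against 0, 4 and 8. nhr-118 had 10, 10 and 17 counts in BRE libraries of day 17, against 0, 6 and 3 in OP50 libraries. nhr-245 had 2, 0 and 0 counts in BRE libraries of day 6, against 12, 4 and 20 in OP50 libraries. In each of these comparisons the diets were separate by a few counts, and none was called. Even numbers made up between 54.5% and 68.9% of counts from 1 to 20 in each library, so a count is not taken here as 1 fragment.

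By level per exon length, averaged over the 9 groups, the highest receptor genes were nhr-86 at 34.7 CPM per kb, nhr-23 at 30.3, nhr-274 at 27.8, nhr-66 at 23.6, nhr-2 at 22.5, nhr-154 at 20.2, nhr-20 at 19.9 and nhr-17 at 19.7 CPM per kb. The median over the 267 members was 1.25 CPM per kb. The last 3 differ by less than the spread of their libraries. nhr-2, known from early embryos, was called lower at day 17, at 19.9, 38.5 and 32.2 CPM, against 60.1, 60.3 and 42.4 CPM at day 1 (log2 difference -0.85, SE 0.21, edgeR adjusted p = 0.0022). Summed embryo markers were at 14.8 to 18.4 CPM at day 17, against 24.3 to 40.7 CPM at day 1. nhr-154 rose, to 34.3, 46.1 and 49.8 CPM at day 17, against 15.4, 15 and 14.3 CPM at day 1 (log2 difference 1.55, SE 0.15, adjusted p = 2.3e-08).

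nhr-17 varied between replicates of a group more than between diets. In OP50 libraries of day 6 it had 14.9, 59 and 14.8 CPM, and replicate 2 stood alone. At day 17 it had 21.4, 46.5 and 33 CPM in BRE worms, against 19.9, 53.8 and 30.1 CPM in OP50 worms, and replicate 2 was highest on both diets. It was not called in any comparison named here.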

How the data were processed

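RNA-seq of 27 whole-worm libraries was analysed from the table of raw counts per gene that the authors deposited, which carries no normalization. The submitters' processing notes name HISAT2 2.0.5, SAMtools 1.7, featureCounts, Trimmomatic and FastQC. Tool settings, genome build, annotation and strandedness were not given in the sources used here. Gene symbols came from a gene name table (44113 of 46934 IDs), and positions and neighbours from the Ensembl WBcel235 annotation (46924 IDs). All 27 columns were matched to libraries by diet, day and replicate number, and no 2 libraries were copies.

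Counts were scaled by TMM and fitted with edgeR 4.0.16 in R 4.3.3 (filterByExpr, minimum count 10, 9 group means, quasi-likelihood test). Calls have a Benjamini-Hochberg adjusted p under 0.05 over the 19290 genes tested. The SE is the size of the log2 difference divided by the root of F, and the 95% interval is 1.96 SE either way. This interval is approximate and somewhat narrow, since the test has limited degrees of freedom. Counts of intervals inside 2-fold are therefore upper values. Tested members with 0 counts in a whole group numbered between 0 and 12 per comparison. Setting their differences at the bound that 3 counts over the group allow moved the median of the members to -0.23 at day 6 against day 1 and to -0.04 for BRE against OP50 at day 6, and no other median. On simulated counts for 18676 genes the test called 15% of 2-fold and 64% of 4-fold changes for BRE against OP50 at day 6, and 13% and 54% for OP50 day 17 against day 1, with 4 false of 83 and 4 false of 71 calls. Only 100 genes per fold and comparison were changed there. In the data 53.9% of all genes were called at day 17 against day 1. The adjusted p depends on how many genes change, so the 13% and 54% do not carry over to that comparison.

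The receptor genes and the lists by role were chosen with earlier results of these data known. Genes were named by their role, by level (the 8 highest per kb), or by size among calls of at least 1 log2 unit with a group mean of at least 1 CPM and no overlap of groups (10 each way at day 17 against day 1, up to 3 each way on other days and 5 each way at day 17 against day 6). For diet they were the 5 of smallest p per comparison. Whether replicate numbers pair libraries was checked from correlations of deviations from the group means. Each of the 3 was over 0.1 for day 17 against day 6 (0.571, 0.398 and 0.296 on OP50; 0.257, 0.268 and 0.284 on BRE) and for BRE against OP50 at days 6 (0.411, 0.458 and 0.648), 11 (0.385, 0.573 and 0.165) and 17 (0.233, 0.503 and 0.325). This was not so at day 15 or against day 1. Between diets at day 11 the highest correlation of libraries of unequal number was 0.186, above the 0.165, so pairing is less clear there. For day 17 against day 6, and between diets at days 6 and 17, it was at most 0.0981. The alternatives were DESeq2 1.42.0, RLE size factors, no filter on counts, only the groups compared, a replicate block, leaving out each library and, chosen after seeing the data, leaving out the 4 libraries rich in msp transcripts.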

Additional observations from a re-analysis of the deposited data

How the results depend on the processing

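The counts of members called higher at day 17, against day 1 and against day 6 on either diet, stayed within 1.5 times under every alternative, and the counts for BRE against OP50 stayed at 0. Leaving out 1 library at a time gave 84 to 109 members higher and 22 to 37 lower at day 17 against day 1. The 84 came without OP50 day 17 replicate 3, and the 109 and the 22 without OP50 day 17 replicate 1. Without the libraries rich in msp transcripts 22 were lower, and with only the groups compared 21. Calls over all genes were 9641 and 7771 in these fits, against 10399 in the main fit. At day 11 against day 1, 34 were higher with only the groups compared, where calls over all genes fell from 6901 to 5502. Where replicate numbers share only a number, the replicate block gave 6 higher and 30 lower at day 6 against day 1, 24 and 14 at day 11, 57 and 17 at day 15, and 20 lower at day 17. Calls over all genes fell as well under this block, from 6358 to 4733 at day 6 and from 6901 to 4769 at day 11. At days 15 and 17 they fell from 9103 to 6355 and from 10399 to 7255. The causes were not tested. Where the numbers pair the libraries, the block changed no count of calls by over 1.5 times (135 higher and 29 lower on BRE and 112 and 21 on OP50 at day 17 against day 6, 0 between diets). Of 54 named members called at day 17 against day 1, 41 kept the call under every alternative, and nhr-13, nhr-76, nhr-5, nhr-260, nhr-232, nhr-118, nhr-245 and nhr-290 were among the 13 that did not. Of 5 named members called at day 6 against day 1, nhr-25 lost the call under the replicate block (log2 difference -1.79, adjusted p = 0.061). No named member that was called changed sign.

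Medians near 0 changed sign. Leaving out 1 library at a time, the median for BRE against OP50 ran from -0.1008 (without BRE replicate 3) to 0.005275 at day 6, where it was 0.005275 in the absence of OP50 replicate 2 and 0.000477 in that of BRE replicate 2. At day 15 it ran from -0.09805 to 0.04239 (without OP50 replicate 3), and was 0.0538 without the msp-rich libraries. At day 17 it ran from -0.07813 (without OP50 replicate 1) to 0.1227 (without OP50 replicate 3), and the average over days from -0.0633 to 0.008317, without the same OP50 libraries. For the change between days 6 and 17, BRE minus OP50, it ran from -0.0332 (without OP50 day 17 replicate 1) to 0.1882, and was -0.03239 without the msp-rich libraries. The median against day 1 kept its sign, from -0.3086 (without OP50 day 6 replicate 3) to -0.132 (without day 1 replicate 2) at day 6, and from 0.06374 (without day 11 replicate 3) to 0.2483 (without day 1 replicate 2) at day 11. For the 117 members under 1 CPM the effect of depth on the calls was not tested.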
